A study of Mus musculus with 4 samples.

Results

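Cholesterol synthesis, its control by the SREBP factors, and sterol uptake and efflux were compared between MEL and ES-EP cells, each differentiating along the erythroid line. A list of 37 genes was followed in pathway order. A gene counted as measured when the array had a feature annotated to that gene alone, older synonyms included, and 35 of the 37 genes had such features, 38 in number, among 19938 genes measured in the same way. Acat2 and Nr1h2 were not analysed here.

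The MEL group was 2 samples, A and B, of MEL cells, an erythroleukemia line kept in DMEM with FBS, L-glutamine and puromycin and differentiated with 17b-estradiol for 48 hours. The ES-EP group was 2 samples, A and B, of ES-EP cells, which are progenitors of the red cell lineage made from ES cells and expanded in StemPro34 with Epogen, hIGF-1, dexamethasone, murine SCF and b-mercaptoethanol. Those cells were differentiated for 24 hours in StemPro34 with Epogen, insulin, mifepristone and b-mercaptoethanol. Total RNA of each sample was measured on 1 array of the Affymetrix GeneChip Mouse Gene 1.0 ST. Cell type, medium, inducer and hours differed together between the groups and cannot be told apart, and undifferentiated cells were not analysed here. The labels do not say whether duplicates were separate cultures. The spread behind each p-value is therefore that of these arrays, and it may be technical.

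Cells build cholesterol from acetyl-CoA through mevalonate, the isoprenoid diphosphates, squalene and lanosterol. When sterols in the endoplasmic reticulum run low, SCAP carries the SREBP factors to the Golgi, where they are cut and released to switch on genes of synthesis and uptake, and INSIG proteins hold SCAP back when sterols are plentiful. Oxysterols activate the LXR receptors, which switch on genes of cholesterol efflux. Red cells carry much cholesterol in their membrane, and erythroid precursors divide and enlarge that membrane before they lose their organelles.

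The genes of the pathway split by role. Genes of sterol synthesis were mostly lower in the MEL group, while the measured genes of the LXR and efflux group, the factor gene Srebf1 and the lysosomal exporter gene Npc1 were higher. Of the 35 genes, 12 were higher and 16 lower in MEL with the adjusted p below 0.05 (limma, Benjamini-Hochberg over all tested features), against 21.8% of all genes higher and 36.9% lower. With a difference of at least 2-fold, 5 genes were higher and 6 lower, and of all genes 7.38% and 4.93% were. Both MEL arrays lay above both ES-EP arrays for 14 of the genes and below them for 17, with 28.7% and 51.5% of all genes doing so. The median log2 difference of the 35 genes was -0.02, against -0.14 for all genes, so the median hides the split between the roles. Array scaling matters for small differences: after cyclic loess between the arrays 29.04% of all genes were higher and 24.5% lower, their median was 0.02, and 13 of the 35 genes were higher and 13 lower. Each value below is an RMA value on the log2 scale, and each difference is the MEL mean minus the ES-EP mean, with the standard error of the moderated fit (n = 2 per group).

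**Figure D1:**
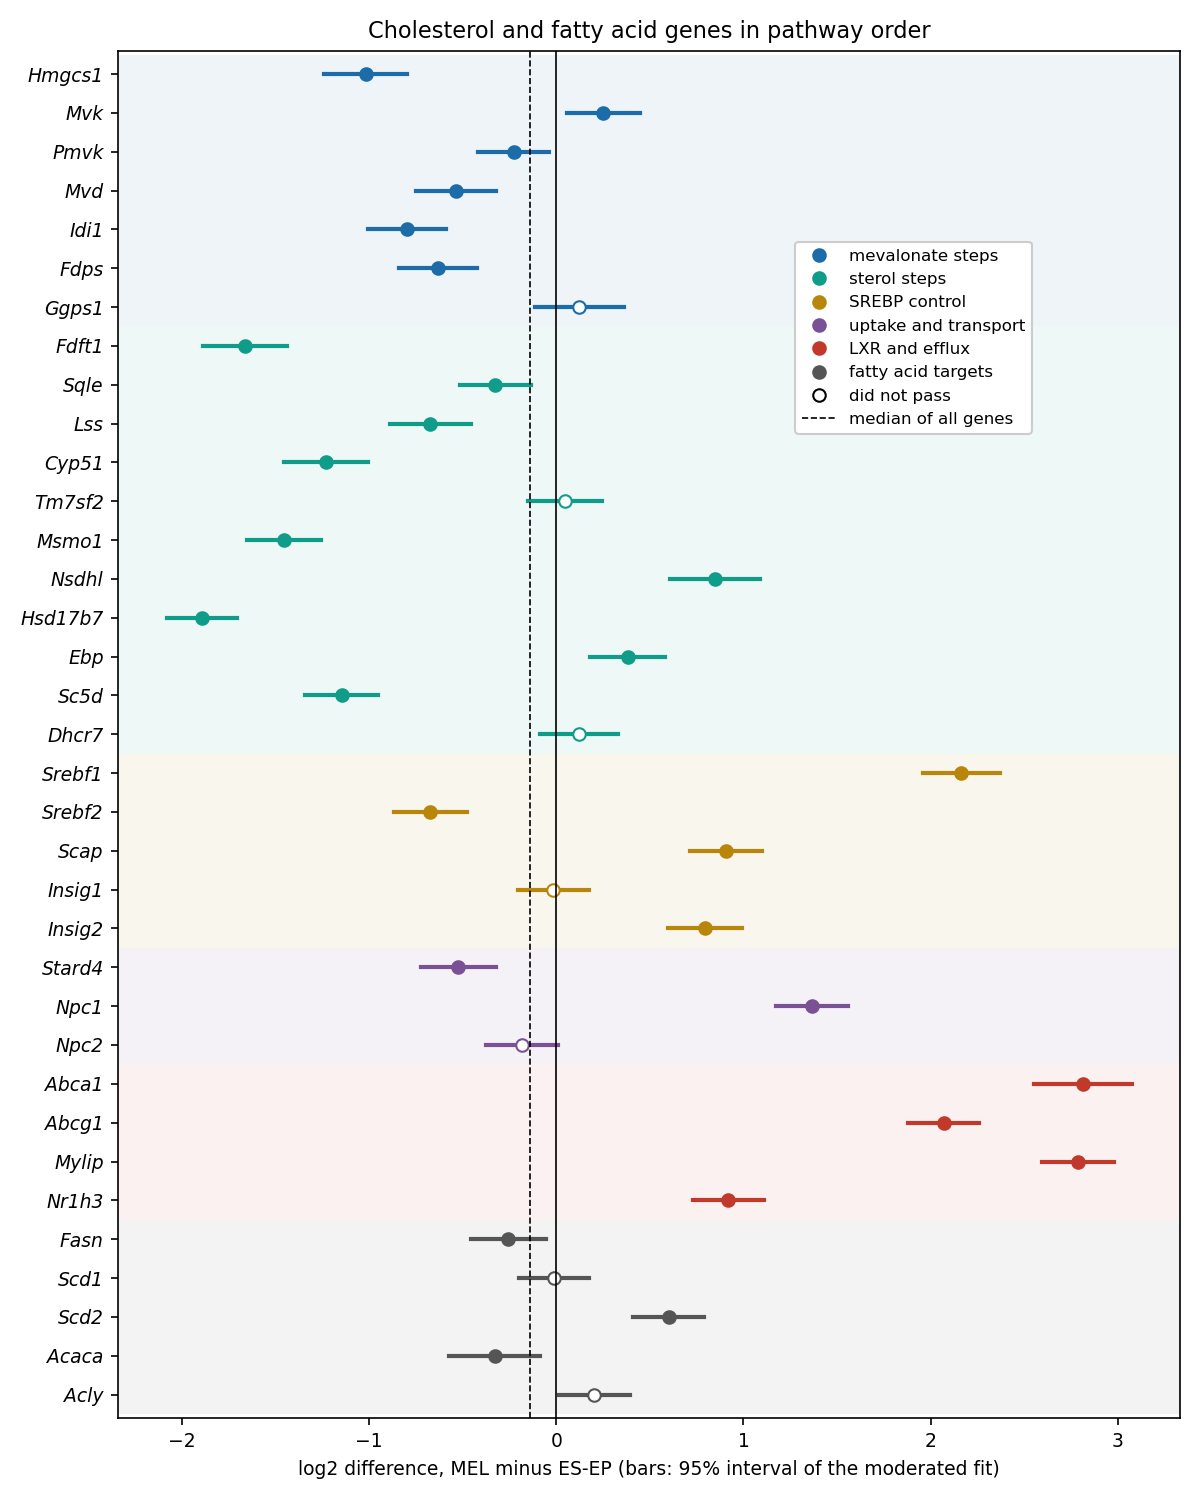
Log2 difference (MEL minus ES-EP, x axis) of the 35 measured genes in pathway order, coloured by role. Bars are 95% intervals, filled points passed at an adjusted p under 0.05, and the dashed line is the median of all genes at -0.14. Synthesis genes run down to -1.90 for Hsd17b7, and the 4 LXR and efflux genes run from 0.92 to 2.81.

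Promoters are shown for 5 genes that mark the ends of this pattern, chosen after their values were seen. Hmgcs1 is the synthase near the entry to the pathway. Hsd17b7 and Nsdhl had the largest fall and the largest rise among synthesis genes, Insig1 did not pass, and Abca1 had the largest rise of the 35. Each is the RefSeq window of 250 bases before to 50 after the annotated start in GRCm38.p6, written on the gene's own strand. Capitals mark the sterol regulatory element (SRE, TCACNCCAC), the E-box (CACGTG) and the CCAAT box on either strand. The windows are chr13:119690101-119690400 on the plus strand for Hmgcs1, chr1:169969156-169969455 on the minus strand for Hsd17b7, chrX:72918271-72918570 on the plus strand for Nsdhl, chr5:28071162-28071461 on the plus strand for Insig1 and chr4:53159846-53160145 on the minus strand for Abca1.
Hmgcs1: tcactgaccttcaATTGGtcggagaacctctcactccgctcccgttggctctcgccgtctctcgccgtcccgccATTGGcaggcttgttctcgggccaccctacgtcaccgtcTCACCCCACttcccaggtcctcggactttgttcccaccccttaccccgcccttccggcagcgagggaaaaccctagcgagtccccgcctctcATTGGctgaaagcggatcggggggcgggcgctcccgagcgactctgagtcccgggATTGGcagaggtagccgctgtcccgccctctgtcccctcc
Hsd17b7: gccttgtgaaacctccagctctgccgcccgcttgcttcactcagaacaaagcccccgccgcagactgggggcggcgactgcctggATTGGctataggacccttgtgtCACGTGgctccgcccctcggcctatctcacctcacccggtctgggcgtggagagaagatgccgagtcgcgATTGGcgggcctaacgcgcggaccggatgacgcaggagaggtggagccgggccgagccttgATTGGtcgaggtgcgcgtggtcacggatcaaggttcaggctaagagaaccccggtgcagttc
Nsdhl: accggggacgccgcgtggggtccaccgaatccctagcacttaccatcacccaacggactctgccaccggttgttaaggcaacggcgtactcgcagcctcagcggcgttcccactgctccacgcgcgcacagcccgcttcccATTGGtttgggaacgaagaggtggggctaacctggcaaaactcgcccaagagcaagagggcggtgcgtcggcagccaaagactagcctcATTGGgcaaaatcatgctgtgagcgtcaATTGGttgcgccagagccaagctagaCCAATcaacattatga
Insig1: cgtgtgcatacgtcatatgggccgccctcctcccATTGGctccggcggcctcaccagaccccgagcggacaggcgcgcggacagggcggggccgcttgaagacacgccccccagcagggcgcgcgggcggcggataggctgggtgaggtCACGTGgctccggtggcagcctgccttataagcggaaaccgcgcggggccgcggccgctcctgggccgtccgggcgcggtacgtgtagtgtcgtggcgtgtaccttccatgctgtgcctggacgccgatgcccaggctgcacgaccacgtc
Abca1: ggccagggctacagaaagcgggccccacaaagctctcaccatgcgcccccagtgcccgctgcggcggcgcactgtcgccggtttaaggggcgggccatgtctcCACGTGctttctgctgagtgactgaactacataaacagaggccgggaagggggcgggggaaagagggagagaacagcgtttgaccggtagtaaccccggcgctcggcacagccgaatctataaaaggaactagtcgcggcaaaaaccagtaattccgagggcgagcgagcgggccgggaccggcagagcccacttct
The Hmgcs1 window held the SRE at position -137 from the start and 4 CCAAT boxes, the Hsd17b7 window an E-box at -143 and 3 CCAAT boxes, the Nsdhl window 4 CCAAT boxes, the Insig1 window an E-box at -101 and 1 CCAAT box, and the Abca1 window an E-box at -147 and no CCAAT box.

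RefSeq windows were matched by symbol for 29 of the 37 genes, 38 windows in all, and for 27025 mouse genes. Fdps, Fdft1, Sqle, Stard4, Npc1, Abcg1, Scd1 and Scd2 had none. A gene was counted when any of its windows held the letters on either strand. The CCAAT box, the letters read by the factor NF-Y that acts beside SREBP, was present in 15 of 16 mevalonate and sterol genes (93.8%) and in 1 of 4 LXR and efflux genes, Mylip, against 41.1% of all genes. The GC box GGGCGG, read by the Sp factors, was present in 14 of the 16 synthesis genes (87.5%), against 38.2% of all genes and 52.9% of those measured on the array. The E-box was present in 6 of the 29 genes (20.7%), namely Dhcr7, Hsd17b7, Sc5d, Insig1, Scap and Abca1, against 8.09% of all genes. The exact SRE letters were present in Hmgcs1 alone (3.45%), against 1.44% of all genes. For LXR only an exact repeat was searched, 2 copies of AGGTCA in 1 direction with 4 bases between them. That repeat was present in 0 of the 29 genes, against 0.0148% of all genes. It is so rare in this exact form, in 4 of 27025 genes, that the 0 tells nothing about these promoters. Elements of SREBP or LXR with other letters were not searched, so a gene without a match may still hold one. The 15 measured synthesis genes with a window, whether lower, higher or not passing, all had a CCAAT box, and Acat2, which was not measured, had none. In all member windows 1 pair of matches overlapped, CCAAT boxes of opposite strands in Fasn. The matches are a description of letters in short windows and not of binding.

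**Figure D2:**
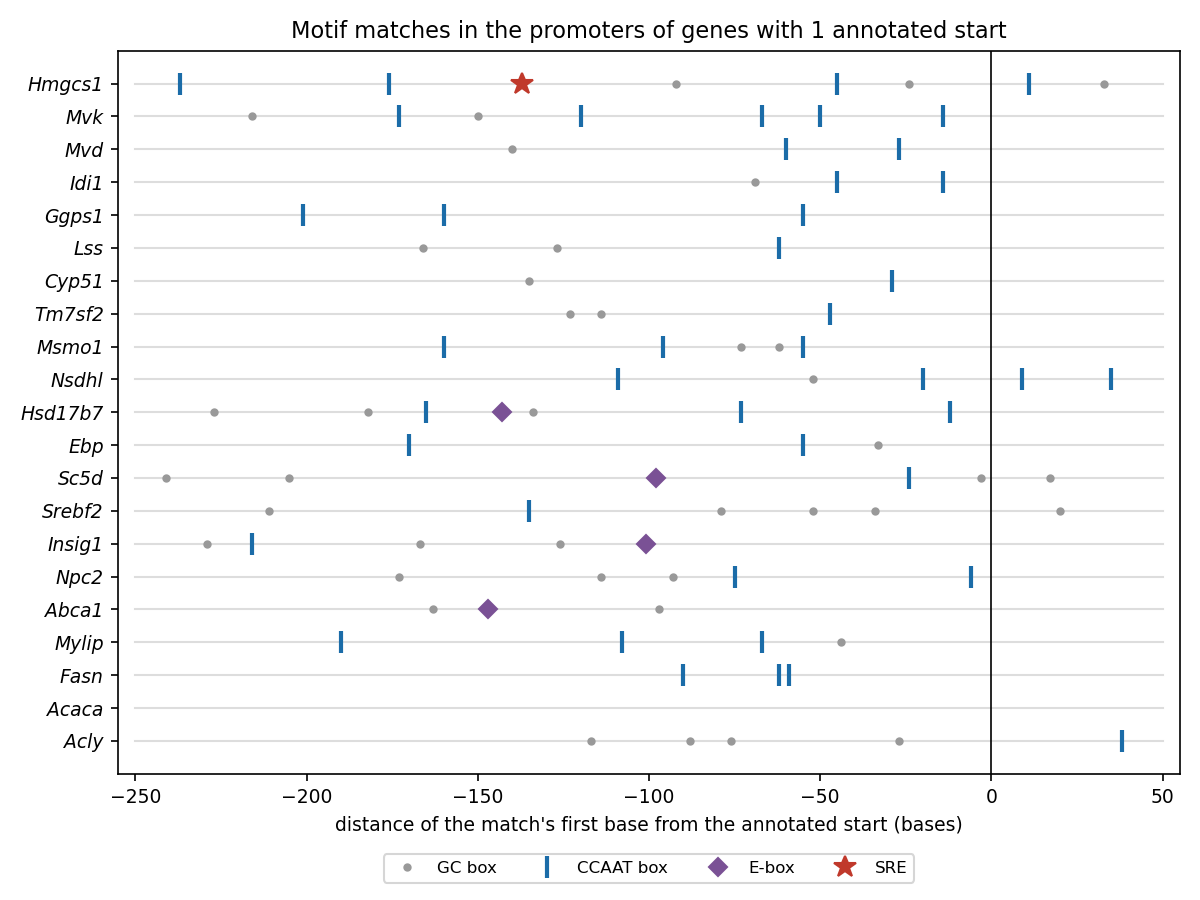
Distance in bases from the annotated start (x axis, 0 is the start) of each match to the SRE, the E-box, the CCAAT box and the GC box, for the 21 measured genes with 1 annotated window, in pathway order. CCAAT boxes are found in each mevalonate and sterol gene plotted, the exact SRE letters in Hmgcs1 alone, and no match to these 4 motifs in Acaca.

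The mevalonate steps were lower in MEL from their entry to farnesyl diphosphate, apart from Mvk. Of 7 measured genes 5 were lower, 1 was higher and 1 did not pass, with a median difference of -0.54. The shares lower and higher were 71.4% and 14.3%, against 36.9% and 21.8% of all genes. Hmgcs1, whose enzyme makes HMG-CoA, had values of 8.95 and 9.13 in MEL and 10.03 and 10.08 in ES-EP samples. All MEL values of Hmgcs1 lay below all ES-EP values, by 2.03-fold on average (-1.02 ± 0.09, adjusted p = 0.000103). Idi1, the isomerase that interconverts the isoprenoid units, had 9.66 and 9.80 in MEL against 10.54 and 10.51 in ES-EP samples, a difference of -0.80 ± 0.09 (adjusted p = 0.000254). The second, dimmer feature of Idi1 gave -0.76. Fdps, which makes farnesyl diphosphate, had 10.30 and 10.18 in MEL against 10.91 and 10.83 in ES-EP samples (-0.63 ± 0.09, adjusted p = 0.000836). Mvd, the decarboxylase that yields isopentenyl diphosphate, had 8.56 and 8.40 in MEL against 9.02 and 9.02 in ES-EP samples, 1.45-fold lower (-0.54 ± 0.09, adjusted p = 0.00202).

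The kinases of mevalonate and the branch enzyme gave small differences. Mvk, which phosphorylates mevalonate, had 8.15 and 8.21 in MEL against 7.96 and 7.91 in ES-EP samples, higher by 0.25 ± 0.08 (adjusted p = 0.0356). Pmvk, the next kinase, was lower, with 8.773 and 8.741 in MEL against 8.970 and 8.999 in ES-EP samples (-0.23 ± 0.08, adjusted p = 0.0455). Neither call was stable: Mvk did not pass without MEL sample B (adjusted p = 0.0816) or ES-EP sample A or B (0.126 and 0.211), and Pmvk did not pass without any 1 of the 4 samples (0.0541 to 0.23). Ggps1, which leads to geranylgeranyl diphosphate for protein prenylation and away from sterols, had 9.09 and 9.32 in MEL and 9.09 and 9.08 in ES-EP samples. The Ggps1 groups overlapped, and the difference of 0.12 had a 95% interval of -0.12 to 0.36 (adjusted p = 0.335).

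The steps from farnesyl diphosphate to lanosterol were lower in MEL. Fdft1, squalene synthase and the first enzyme committed to sterols, had 9.39 and 9.57 in MEL against 11.11 and 11.17 in ES-EP samples. Its groups lay far apart, 3.17-fold (-1.67 ± 0.10, adjusted p = 9.29e-06), and its dimmer second feature differed by -1.39. Lss, which closes the sterol rings, had 8.71 and 8.82 in MEL against 9.38 and 9.50 in ES-EP samples (-0.67 ± 0.09, adjusted p = 0.000693). Sqle, squalene epoxidase, the oxygen-dependent step between them, was lower by less, at 10.16 and 10.23 in MEL against 10.51 and 10.53 in ES-EP samples (-0.33 ± 0.08, adjusted p = 0.012). Sqle did not pass without ES-EP sample A (adjusted p = 0.0696) or B (0.084), and its difference was -0.18 after quantile normalization (adjusted p = 0.0624).

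After lanosterol the enzymes diverged. Of the 11 sterol genes from Fdft1 on, 7 were lower, 2 were higher and 2 did not pass, with differences of -1.90 to 0.85. For these 11, 63.6% were lower and 18.2% higher, against 36.9% and 21.8% of all genes. Cyp51, the lanosterol demethylase, had 8.50 and 8.69 in MEL against 9.80 and 9.85 in ES-EP samples, 2.35-fold lower (-1.23 ± 0.10, adjusted p = 4.16e-05). Tm7sf2, a sterol reductase that can act on its product, overlapped between the groups, at 8.13 and 8.21 in MEL and 8.10 and 8.15 in ES-EP samples (0.05, 95% interval -0.15 to 0.25, adjusted p = 0.645).

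Msmo1, Nsdhl and Hsd17b7 act in turn to strip the remaining methyl groups, and they went different ways. Msmo1, the oxidase, had 10.87 and 10.95 in MEL against 12.34 and 12.39 in ES-EP samples, 2.74-fold lower (-1.46 ± 0.08, adjusted p = 9.35e-06). Hsd17b7, the ketoreductase, had 8.16 and 8.16 in MEL against 10.05 and 10.05 in ES-EP samples, 3.72-fold lower (-1.90 ± 0.08, adjusted p = 2.04e-06). Duplicates of Hsd17b7 nearly coincided. Nsdhl, the decarboxylating dehydrogenase between them, had 9.82 and 9.96 in MEL against 8.94 and 9.14 in ES-EP samples and was 1.80-fold higher (0.85 ± 0.10, adjusted p = 0.000377), the largest rise among the 18 measured synthesis genes.

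The last steps to cholesterol were also mixed. Ebp, the isomerase that moves the ring double bond, had 9.39 and 9.50 in MEL against 9.06 and 9.07 in ES-EP samples, 1.30-fold higher (0.38 ± 0.09, adjusted p = 0.00728). Sc5d, the desaturase that follows it, had 8.69 and 8.77 in MEL against 9.86 and 9.89 in ES-EP samples, 2.21-fold lower (-1.15 ± 0.08, adjusted p = 2.96e-05). Dhcr7, the final reductase, had 8.79 and 8.89 in MEL and 8.67 and 8.77 in ES-EP samples. Its MEL arrays lay just above its ES-EP arrays, and the difference of 0.12 (95% interval -0.09 to 0.33) did not pass (adjusted p = 0.282). Over the 18 measured synthesis genes 12 were lower and 3 higher, 66.7% and 16.7%, against 36.9% and 21.8% of all genes. The median of the 18 was -0.58, or -0.44 relative to all genes. The count of lower genes was 10 after quantile normalization or centring, 11 after cyclic loess, and 10 without ES-EP sample A or B. This list was drawn up with results of these arrays known, so its direction is a description.

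**Figure D3:**
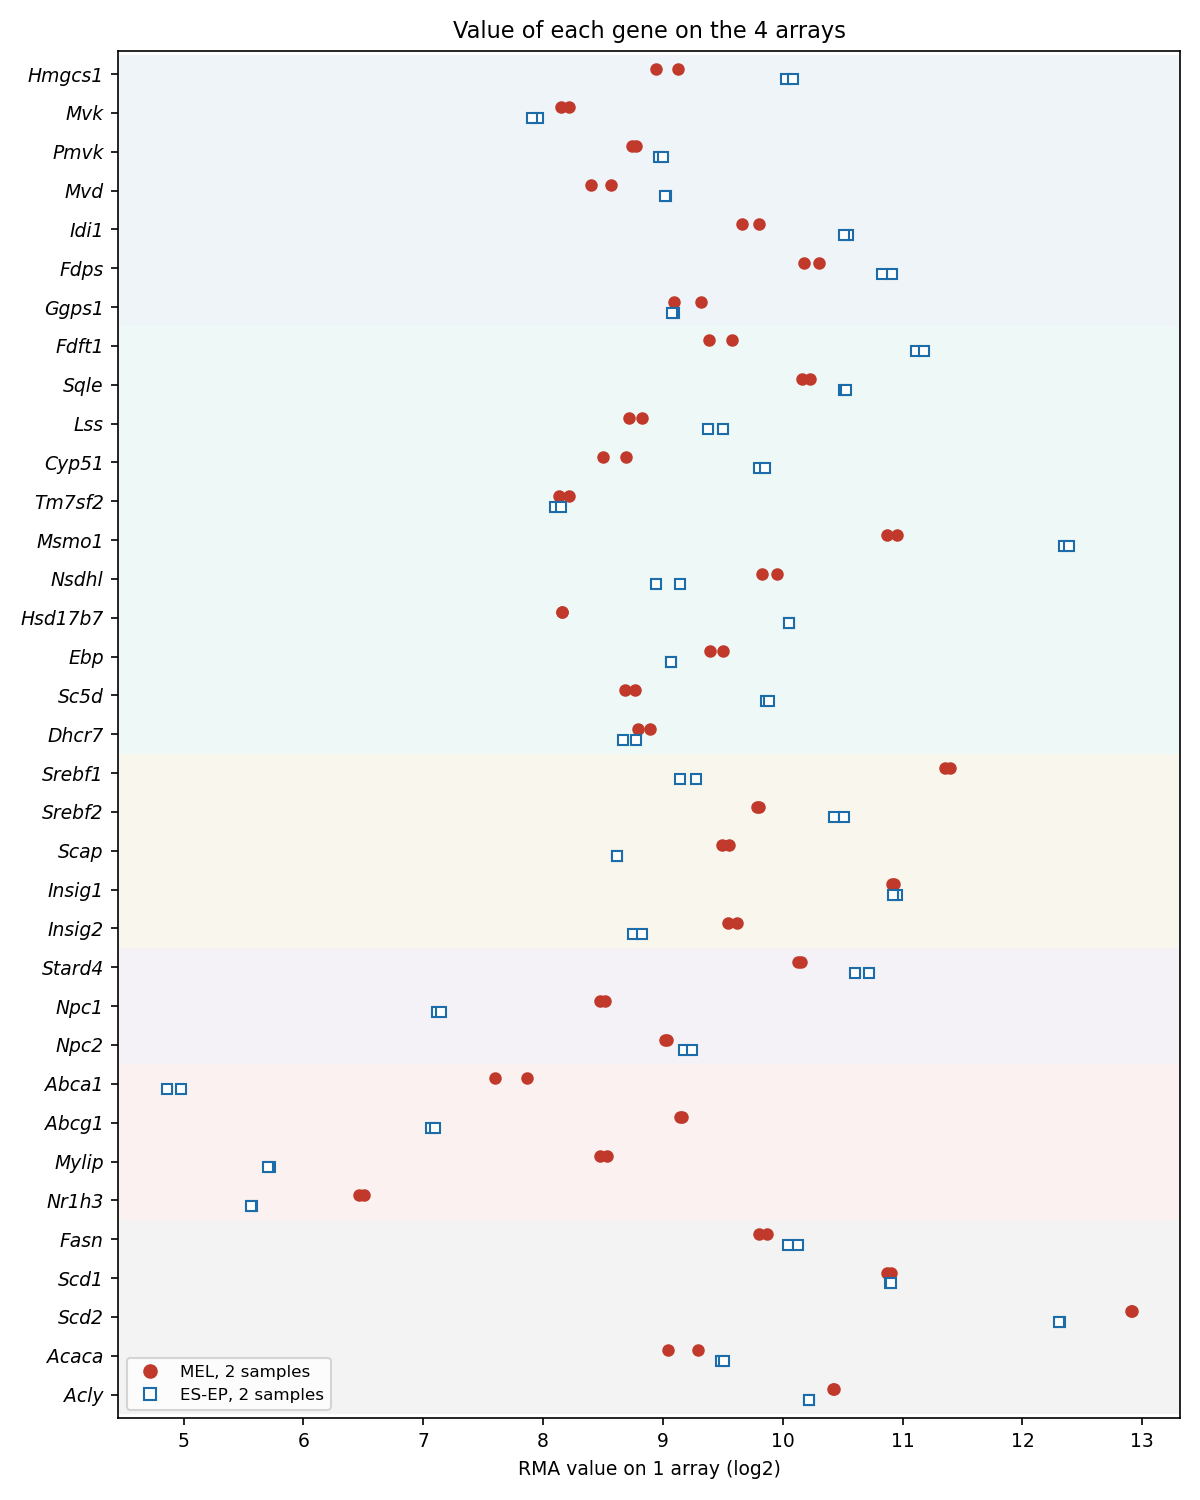
RMA value (log2, x axis) of the 35 genes on each of the 4 arrays, with MEL samples as filled circles and ES-EP samples as open squares, 1 gene a row in pathway order. Values are to be read across the arrays within a row, since features of different genes are not on a common scale. Duplicates lie close, with gaps of at most 0.26 (MEL) and 0.20 (ES-EP).

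Genes that control SREBP differed in opposite directions. Srebf1, which encodes the SREBP1 factors of fatty acid and sterol genes and is itself an LXR target, had 11.40 and 11.35 in MEL against 9.15 and 9.28 in ES-EP samples. That is 4.48-fold higher in MEL (2.16 ± 0.09, adjusted p = 1.68e-06), with no overlap. Srebf2, which encodes SREBP2, the main activator of cholesterol synthesis genes, had 9.80 and 9.79 in MEL against 10.42 and 10.51 in ES-EP samples, 1.60-fold lower (-0.67 ± 0.08, adjusted p = 0.000435).

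The escort gene and 1 of the 2 anchor genes of SREBP were higher in MEL. Scap, the sterol-sensing escort, had 9.49 and 9.55 in MEL against 8.61 and 8.62 in ES-EP samples, 1.87-fold higher (0.91 ± 0.08, adjusted p = 8.71e-05). Insig2, an anchor in the endoplasmic reticulum, had 9.55 and 9.62 in MEL against 8.75 and 8.83 in ES-EP samples, 1.73-fold higher (0.79 ± 0.08, adjusted p = 0.000205). Insig1, the other anchor and a classic SREBP target, had 10.91 and 10.93 in MEL and 10.95 and 10.92 in ES-EP samples. The Insig1 groups overlapped, and the difference of -0.02 had a 95% interval of -0.20 to 0.17 (adjusted p = 0.879), with a sign that turned after each of the 3 other scalings.

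Transport of cholesterol inside the cell was mixed. Npc1, the membrane protein that exports cholesterol from lysosomes, had 8.48 and 8.52 in MEL against 7.12 and 7.15 in ES-EP samples, 2.58-fold higher (1.37 ± 0.08, adjusted p = 1.1e-05). Its soluble partner Npc2 had 9.02 and 9.03 in MEL and 9.17 and 9.24 in ES-EP samples, and the difference of -0.18 did not pass (95% interval -0.37 to 0.01, adjusted p = 0.0961). Stard4, a sterol transfer protein and SREBP target, had 10.13 and 10.15 in MEL against 10.61 and 10.72 in ES-EP samples, 1.44-fold lower (-0.52 ± 0.09, adjusted p = 0.00172).

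The LXR and efflux genes held the 2 largest differences of the 35, and all 4 measured ones were higher in MEL, under each alternative tried as well. Among all genes 21.8% were higher. Abca1, the pump that loads cholesterol onto lipid-poor apolipoprotein, had 7.60 and 7.86 in MEL against 4.98 and 4.86 in ES-EP samples, 7.03-fold higher (2.81 ± 0.11, adjusted p = 1.45e-06). Mylip, the ubiquitin ligase that sends the LDL receptor to degradation, had 8.47 and 8.53 in MEL against 5.72 and 5.71 in ES-EP samples, 6.91-fold higher (2.79 ± 0.08, adjusted p = 3.86e-07). Abcg1, the exporter to mature HDL, had 9.16 and 9.14 in MEL against 7.06 and 7.10 in ES-EP samples, 4.20-fold higher (2.07 ± 0.08, adjusted p = 1.4e-06). Nr1h3, which encodes LXR alpha, had 6.46 and 6.50 in MEL against 5.57 and 5.56 in ES-EP samples, 1.89-fold higher (0.92 ± 0.08, adjusted p = 7.63e-05). Abca1, Mylip and Nr1h3 were dim in ES-EP cells, with means of 4.92, 5.71 and 5.57. Dim here means below the lowest of the 4 array medians, 5.78. All 3 means lay above the lower quartile of all features in ES-EP cells, 4.65. Folds against such low values may understate the difference.

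Efflux and LXR genes are also strongly used by macrophages, so markers of other cells were read beside them. All 10 macrophage markers were measured, 1 higher and 3 lower in MEL, where of all genes 21.8% were higher and 36.9% lower. Means of the macrophage markers spanned 3.59 to 6.37 for MEL, against 3.53 to 7.23 for ES-EP. Their summed linear signal, which the brightest markers weigh on most, was 322 and 355 in MEL and 412 and 411 in ES-EP samples. Fcgr1 was the marker higher in MEL (1.25, adjusted p = 0.000626). Of 5 measured megakaryocyte markers 3 were higher and 0 lower, with summed signals of 1130 and 1078 in MEL against 331 and 377 in ES-EP samples. The largest rises were those of Pf4 (4.38) and Itga2b (2.22). The parts of the macrophage and megakaryocyte lists in the efflux gene values were not tested. Bulk RNA cannot tell fewer cells of a type from less RNA per cell.

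Markers of the labelled erythroid type were read in the same way, and 10 of 12 were measured. Their mean levels spanned 7.04 to 11.94 for MEL, against 9.59 to 12.48 for ES-EP, and with no detection calls these levels do not by themselves identify the cells. Of the 10, 2 were higher and 8 lower in MEL, with the largest fall for Slc4a1 (-5.44). The shares of all genes, 21.8% higher and 36.9% lower, stand beside each marker count here. Summed erythroid signals were 18955 and 19535 in MEL against 32196 and 32507 in ES-EP samples. Mast cell markers had summed signals of 199 and 194 in MEL against 461 and 471 in ES-EP samples, with 0 of 7 higher and 6 lower. Pluripotency markers had 147.2 and 130.8 in MEL against 180.6 and 199.9 in ES-EP samples, with 1 of 6 higher and 4 lower. RMA gives no value of 0, so no marker is listed at 0. The parts of these lists in the lower synthesis genes were not tested.

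Fatty acid genes that SREBP1 is known to drive differed by less than 2-fold each. Of 5 genes 1 was higher, 2 were lower and 2 did not pass, with 1 to 2 higher and 0 to 2 lower under 12 alternatives. The shares, 20% higher and 40% lower, were near the 21.8% and 36.9% of all genes. Scd2, a stearoyl-CoA desaturase, had 12.91 and 12.91 in MEL against 12.31 and 12.30 in ES-EP samples, 1.52-fold higher (0.60 ± 0.08, adjusted p = 0.000636). Its paralog Scd1 had 10.90 and 10.87 in MEL and 10.90 and 10.90 in ES-EP samples, a difference of -0.01 (95% interval -0.20 to 0.18, adjusted p = 0.9) whose sign turned after each of the 3 other scalings. Stretches shared by these paralogs may share signal.

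The remaining fatty acid genes gave differences of at most 0.33. Fasn, fatty acid synthase, had 9.80 and 9.87 in MEL against 10.05 and 10.13 in ES-EP samples (-0.26 ± 0.08, adjusted p = 0.0351). Acaca, acetyl-CoA carboxylase, had 9.04 and 9.29 in MEL against 9.48 and 9.51 in ES-EP samples (-0.33 ± 0.10, adjusted p = 0.0288), and its second feature differed by -0.18 and did not pass (adjusted p = 0.303). Neither call was stable: without MEL sample A or ES-EP sample A or B the adjusted p was 0.0812, 0.101 and 0.228 for Fasn and 0.0809, 0.0883 and 0.11 for Acaca. Acly, which makes cytosolic acetyl-CoA from citrate, had 10.43 and 10.42 in MEL against 10.22 and 10.22 in ES-EP samples. Its difference of 0.20 (95% interval 0.02 to 0.39) did not pass (adjusted p = 0.0634). Acly passed under 4 of 13 alternatives. These were quantile normalization (0.36, adjusted p = 0.00665), cyclic loess (0.31, adjusted p = 0.0133), an intensity trend, and features under the median left out.

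Other genes of the pathway, taken from 6 lists, were read beside the 35. Of 6 measured further genes of cholesterol synthesis 0 were higher and 4 lower (0 to 1 and 2 to 4 under 12 alternatives), with the electron carrier Cyb5a lowest, at 9.92 and 9.97 in MEL against 11.31 and 11.22 in ES-EP samples (-1.32 ± 0.09, adjusted p = 1.63e-05). Among 14 further SREBP targets 7 were higher and 3 lower. Of all genes, 21.8% were higher and 36.9% lower. Me1, the malic enzyme that supplies NADPH, had 10.24 and 10.28 in MEL against 7.27 and 7.31 in ES-EP samples, 7.84-fold higher (2.97 ± 0.08, adjusted p = 3.08e-07), and Acss2, an acetyl-CoA synthetase, was 2.23-fold lower (-1.16 ± 0.09, adjusted p = 4.5e-05). Both directions were thus found among the targets.

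Of 9 genes of SREBP transport and of sterol-regulated degradation 6 were higher and 2 lower in MEL (5 to 6 and 1 to 2 under 12 alternatives), where of all genes 21.8% were higher and 36.9% lower. Sec24d, a coat protein of vesicles that leave the endoplasmic reticulum, had 8.26 and 8.45 in MEL against 5.19 and 4.89 in ES-EP samples, 9.94-fold higher (3.31 ± 0.12, adjusted p = 1.13e-06). Sec24d was dim in ES-EP cells, and so was Nceh1, described next, so both folds may be understated. Rnf139, a sterol-sensing ubiquitin ligase, was the lowest passing gene of the list (-0.63 ± 0.13, adjusted p = 0.00476). The coat protein serves many cargoes besides SCAP.

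Of 11 measured genes of the list of uptake, esterification and transfer 4 were higher and 4 lower (4 and 1 to 5 under 12 alternatives). Soat1 and Soat2, the esterifying enzymes of this list, were not analysed here, so esterification itself was not read. Their share of lower genes, 36.4%, was near the 36.9% of all genes, and 36.4% were higher, against 21.8% of all genes. Nceh1, a cholesteryl ester hydrolase, had 8.20 and 8.43 in MEL against 5.65 and 5.75 in ES-EP samples, 6.11-fold higher (2.61 ± 0.10, adjusted p = 1.54e-06), and Vldlr, a lipoprotein receptor, was dim in both groups and lower (-0.69 ± 0.08, adjusted p = 0.000349).

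Of 10 further LXR partners and targets 2 were higher, 3 were lower and 5 did not pass. These shares were near the 21.8% higher and 36.9% lower of all genes. Rxra, a partner receptor of LXR, was 2.62-fold higher (1.39 ± 0.08, adjusted p = 9.59e-06). Lpl, lipoprotein lipase, went the other way, with 4.21 and 4.14 in MEL against 8.66 and 8.64 in ES-EP samples, 22.2-fold lower (-4.47 ± 0.08, adjusted p = 8.99e-08). Its MEL values lay below the lower quartile of all features there, 4.42, so the fold may understate the difference.

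The prenyl branch uses farnesyl and geranylgeranyl diphosphate. Of its 12 measured genes 1 was higher, 4 were lower (1 to 5 under 12 alternatives) and 7 did not pass, where of all genes 21.8% were higher, 36.9% lower and 41.4% did not pass. The share of lower genes, 33.3%, was near that of all genes. Coq2, which joins the prenyl tail to the ring precursor of coenzyme Q, was 2.38-fold lower (-1.25 ± 0.08, adjusted p = 1.89e-05). Icmt, which methylates prenylated proteins, was 1.36-fold higher (0.44 ± 0.09, adjusted p = 0.00519).

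**Figure D4:**
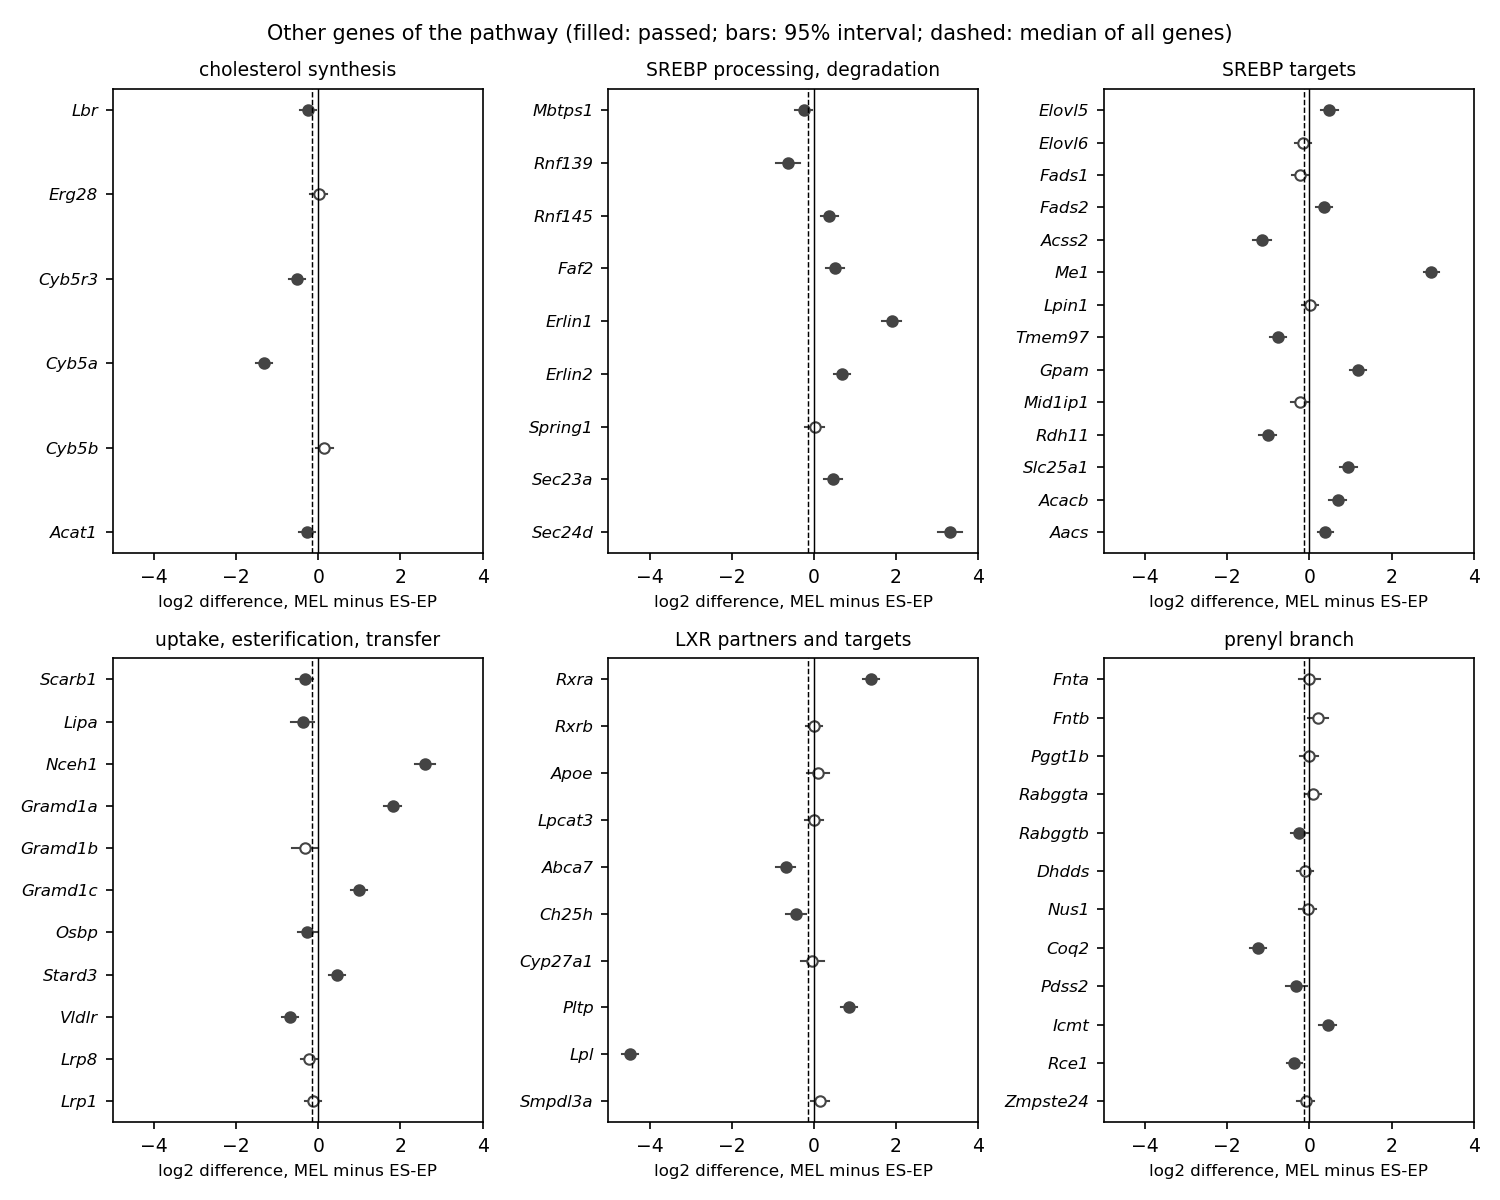
Log2 difference (MEL minus ES-EP, x axis) of the other measured pathway genes in 6 lists, with 95% intervals as bars, filled points for those that passed and the median of all genes at -0.14 as a dashed line. The span is widest among LXR partners and targets, from -4.47 for Lpl to 1.39 for Rxra.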

How the data were processed

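Total RNA of 2 MEL and 2 ES-EP samples was measured on 1 array each. The authors deposited log2 values made by RMA with GeneSpring GX (per the labels). That they are log2 follows from their range. No version, filter or build is stated in the labels. RMA equalises arrays, so a change in total RNA per cell is not visible, and there are no detection calls.

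Of 35557 features, 6613 consecutive low-numbered control features were left out and 28944 were tested. Names came from the platform annotation, updated by Entrez ID with RefSeq (GRCm38.p6, 21698 of 21789 features with 1 symbol matched). The brightest feature represented a gene.

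The MEL minus ES-EP contrast was fitted in R 4.3.3 by limma 3.58.1 (lmFit, eBayes, 2 residual and 5.15 prior degrees of freedom, Benjamini-Hochberg over 28944 features, threshold 0.05). The exact permutation test of 4 arrays cannot give a two-sided p under 0.333. The number of arrays limits the precision. The fit was tested on simulated data. Duplicates correlated with r = 0.997 (MEL) and 0.998 (ES-EP) across features, against 0.948 to 0.949 between groups.

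Members and lists were chosen with earlier results of these data known. Every measured member is named, and of each further list the largest passing rise and fall where one passed. The 4 marker genes named were picked after their values were seen. Alternatives were quantile normalization, centring, cyclic loess, an intensity trend, removal of dim features, of features without exactly 1 symbol, the mean of a gene's features, the replicate letter as a block, each sample left out and, added after the data were seen, control features included. Motif counts were repeated without the bases after the start.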

Additional observations from a re-analysis of the deposited data

How the results depend on the processing

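With 2 arrays per group the calls of small differences depend on each array, and signal over background was not available to show which dim genes were measured. The members had 12 higher and 16 lower calls, and 11 to 13 and 12 to 16 under the 13 alternatives, 5 to 7 and 5 to 6 of them at least 2-fold. The calls of Mvk, Pmvk, Sqle, Fasn and Acaca were lost under some alternatives, as given above for left-out samples. Among the scalings, quantile normalization ended those of Mvk, Pmvk, Sqle and Fasn, centring those of Pmvk, Sqle, Fasn and Acaca, and cyclic loess those of Pmvk, Fasn and Acaca. The other 23 called members kept their call and direction under all 13. Acly, which was not called, passed under 4 of the 13, as given above. Signs turned for differences near 0 that never passed: Tm7sf2 became -0.00041 after quantile normalization, Insig1 0.13 with quantile normalization, 0.0491 with centring and 0.0952 with cyclic loess, and Scd1 0.147, 0.0518 and 0.0979 with the same 3 scalings. Leaving out each sample in turn gave -0.0315 to 1e-04 for Insig1 and -0.0272 to 0.00115 for Scd1. The cause was not tested.

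Over all features 10827 were lower in MEL, 7084 after cyclic loess and 5479 with features under the median left out, which tests fewer features. At least 2-fold 1495 were lower, and 2631 with control features included, which adds features to the test.

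The letters A and B are not said to pair the samples, and deviations of same-lettered arrays from their group means correlated with r = 0.11 across features. With the replicate letter as a block 12 members were higher and 15 lower, Pmvk being lost (adjusted p = 0.0544). Without the bases after the start 22 of 23 member genes kept a CCAAT box.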

Other observations

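Nsdhl and Ebp, 2 of the 3 synthesis genes that were higher in MEL, were the only members on the X chromosome, a pattern picked out after their values were seen. Of 742 measured X-linked genes 32.2% were higher and 26.3% lower in MEL, with a median difference of -0.02, against 21.4% higher, 37.3% lower and a median of -0.14 for 19166 autosomal genes. These are counts over genes of the same 4 arrays, and no cause was tested.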
